A study of Homo sapiens with 6 samples.

Results

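The genes described here are 41 genes of epithelial cell contacts and of the keratin skeleton that those contacts hold, out of 58395 genes in the files. They were listed by symbol for what their products do, with earlier results of these data known, and matched to Ensembl gene identifiers. The list holds 8 claudins, 11 other tight junction and polarity genes, 11 desmosome genes, 2 adherens junction catenins, 6 keratins, and the membrane protease matriptase with its 2 inhibitors. Their RNA is compared in HCT116, a human colorectal cancer cell line, between 3 biological replicates that carry a non-target hairpin (shControl) and 3 that carry a hairpin against STBD1 (shSTBD1). STBD1 is a glycogen-binding protein and a proposed adaptor for the autophagy of glycogen. Both groups are cultured in DMEM with fetal bovine serum, and both hairpins are delivered by lentivirus, so the controls share the vector, the infection and the selection of infected cells. A single hairpin stands for the depletion, and the labels do not say whether the replicates of a group come from separate infections, so the p-values measure the spread between these libraries. In bulk RNA, a change in the number of cells that express a gene and a change in RNA per cell cannot be told apart.

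Epithelial cells are joined side to side by a stack of contacts. At the top, the tight junction seals the space between cells: claudins, occludin and related membrane proteins form its strands, scaffold proteins such as the zonula occludens family tie the strands to actin, and the PAR and Crumbs complexes set the border between the apical and the lateral membrane. Below it lies the adherens junction, in which catenins link cadherins to actin. Desmosomes are spot contacts, in which the cadherins desmoglein and desmocollin are bound through plakoglobin and plakophilins to desmoplakin, which anchors keratin filaments. Simple epithelia such as the colon build these filaments from pairs of a type II keratin, chiefly KRT8, and a type I keratin, such as KRT18 or KRT19.

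The libraries hold 17689097 to 21668274 expected counts, and the 41 genes take 0.664% to 0.685% of them in shControl and 0.734% to 0.739% in shSTBD1. This rise rests largely on KRT8, KRT18 and KRT19 and does not describe the list as a whole. Summed over libraries, these keratins hold 97766, 44334 and 39786 counts in shControl and 117896, 52710 and 49870 counts in shSTBD1. In counts scaled to library size (CPM), the unit in which groups are compared, STBD1 itself measures 16.2, 15.7 and 14.4 CPM in the shControl libraries and 11.6, 9.06 and 9.18 CPM in the shSTBD1 libraries, with no overlap between the groups and a log2 fold change of -0.64 (SE 0.0979, edgeR adjusted p = 0.000291). It no longer passes with limma on TPM, where its adjusted p is 0.0646 or 0.0672. Of the colon epithelium markers, EPCAM lies between 213 and 226 CPM in the 6 libraries, while VIL1, CDX1, GPA33 and CEACAM5 are at or near 0. Among markers of other cells, PTPRC, CD3E and LUM are at 0 in every library and COL1A2, COL3A1 and DCN at or near 0, although COL1A1 lies between 30.9 and 40.3 CPM. The library shControl 1 differs more from the other control libraries than these differ from each other (chi-square per degree of freedom of 6.26 and 5.00 against 1.64), so counts are also given without it.

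In levels scaled for gene length (TPM, in which every library has the same total), the keratins stand far above the junction genes. KRT8 averages 1342 TPM over the 6 libraries, KRT19 805 TPM and KRT18 730.1 TPM, followed by the protease inhibitor SPINT2 at 295 TPM. The catenin CTNNA1 (145 TPM), CLDN7 (114 TPM) and plakoglobin, JUP (108 TPM), come next, and the ranges of CLDN7 and JUP over the libraries overlap. At the other end, PKP1, a plakophilin of stratified epithelia, has 3 counts in all in shControl and 0 counts in shSTBD1, and the claudin CLDN1 has 13 counts and 5 counts. Neither could be tested. Of the 41 genes, 31 average at least 10 TPM.

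**Figure D1:**
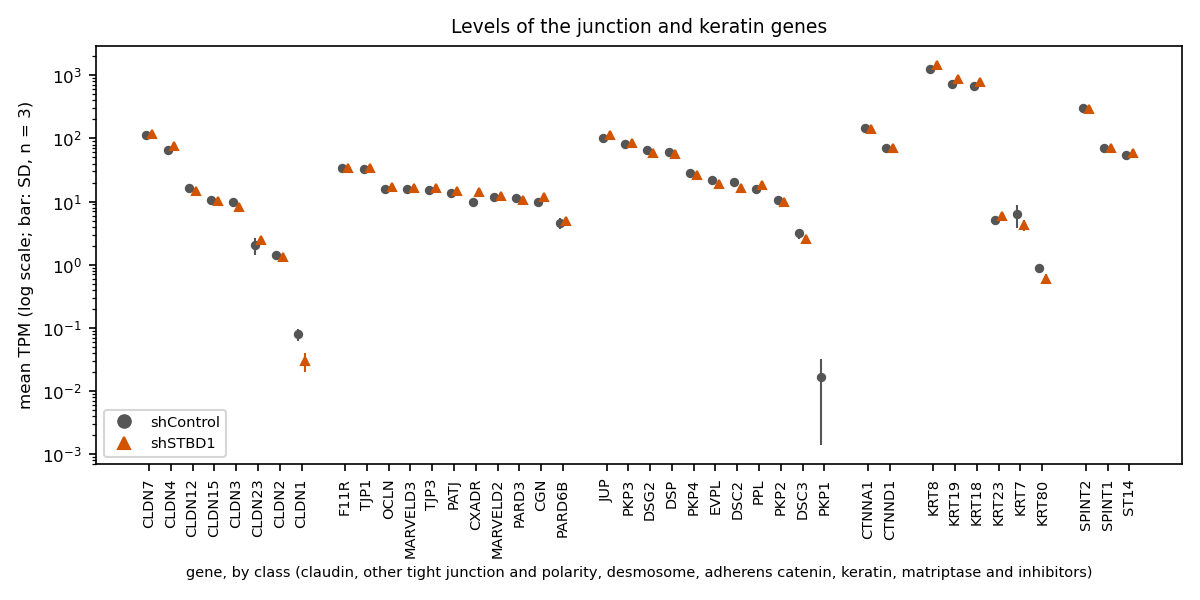
Mean TPM (log axis) of each of the 41 genes in shControl (grey circles) and shSTBD1 (orange triangles), with the SD over 3 libraries, grouped by class; a group at 0 is not drawn. KRT8, KRT19 and KRT18 lie above every other gene, and CLDN1 and PKP1 lie below 0.1 TPM.

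Of the 39 genes tested, 15 pass an adjusted p of 0.05 in edgeR's quasi-likelihood test (38.5%), against 15.8% of all 15566 genes tested. Of these, 11 are higher in shSTBD1 (28.2%, against 8.22% of all genes) and 4 are lower (10.3%, against 7.54%), so the share of lower genes is near that of all genes. The list was made with earlier results of these data known, so these shares are a description and no test of an excess. Apart from CXADR at 0.52, the log2 fold changes past the threshold are at most 0.28 in size. The median log2 fold change is 0.076, beside 0.0023 for all genes tested. The CPM values of the groups do not overlap for 22 of the 39 genes (56.4%, against 33.6% of all genes). Well expressed genes are called more often in these data: all 15 calls fall among the 31 genes with at least 10 TPM (48.4%), where 22.7% of all genes at that level are called. Without shControl 1, 18 genes are called, 14 higher and 4 lower, and 13 of the 15 are among them, where 16.2% of all genes are called. Without shSTBD1 3, 8 are called, 6 higher and 2 lower, where 9.46% of all genes are called. Without shSTBD1 2, 11 are called, 9 higher and 2 lower, where 8.90% of all genes are called.

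**Figure D2:**
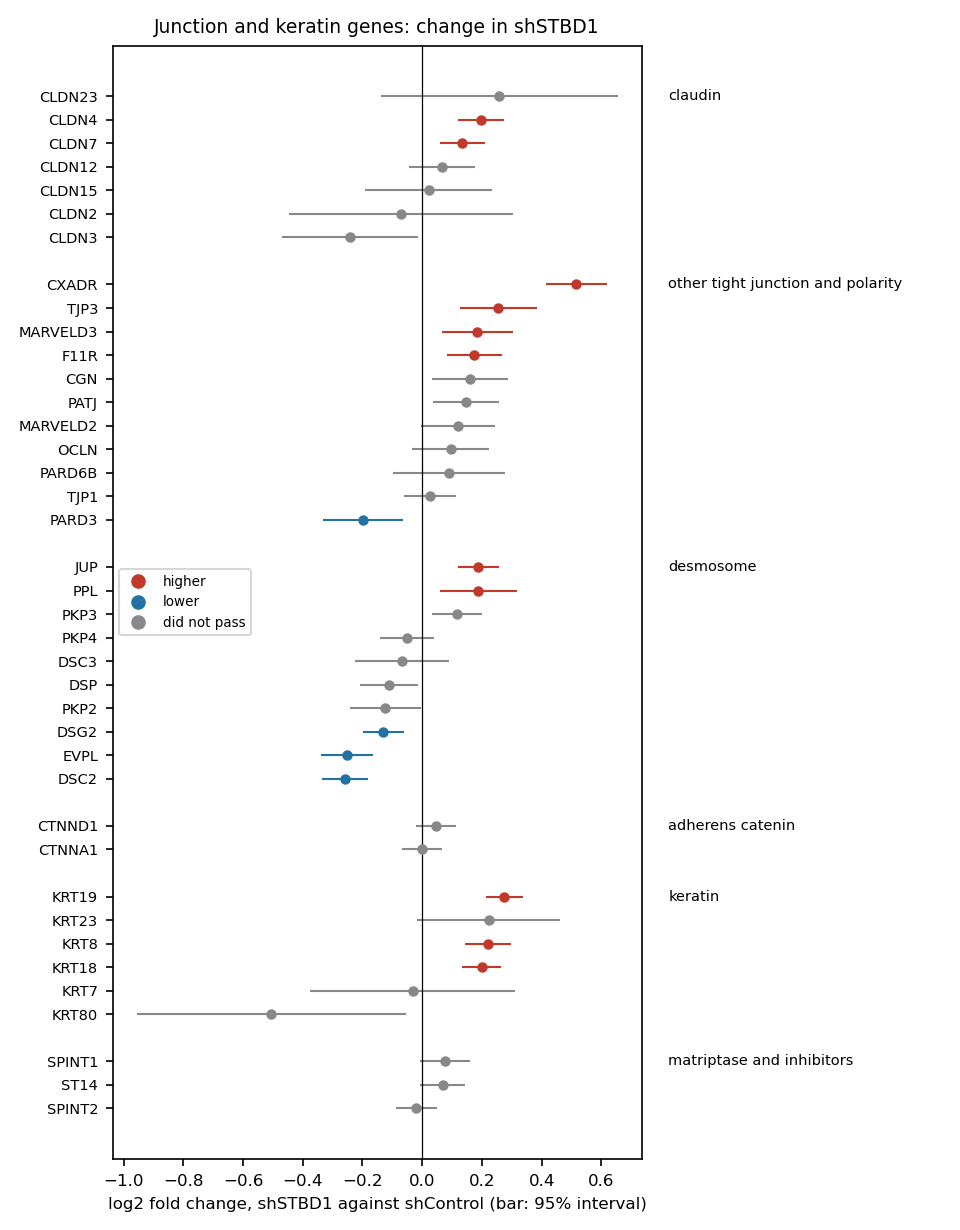
Log2 fold change of shSTBD1 against shControl for the 39 tested genes by class, with 95% intervals; red and blue mark genes higher and lower at an edgeR adjusted p under 0.05, grey those that did not pass. CXADR has the largest change past the threshold, 0.52, and the desmosome genes past the threshold lie on both sides of 0.

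The keratins are the class with the largest gain in summed TPM. Their summed level is 2680 ± 23.1 TPM in shControl and 3097 ± 75.3 TPM in shSTBD1 (SD, n = 3). The 3 abundant simple keratins are all higher and the 3 scarce keratins do not pass the test. KRT8, the type II partner, is at chr12:52897187-52949954 and measures 1795, 1623 and 1656 CPM in the shControl libraries and 2011, 1957 and 1945 CPM in the shSTBD1 libraries. The lowest shSTBD1 library exceeds the highest control, and the log2 fold change is 0.22 (SE 0.0364, edgeR adjusted p = 0.000591). KRT18, its usual type I partner (chr12:52948871-52952906), measures 794, 748 and 758 CPM in the shControl libraries and 882, 884 and 875 CPM in the shSTBD1 libraries. The shSTBD1 libraries of KRT18 are nearly equal and all above the controls, with a log2 fold change of 0.20 (SE 0.0312, edgeR adjusted p = 0.000363). KRT19, the smallest type I keratin (chr17:41523617-41528308), measures 691, 676 and 699 CPM in the shControl libraries and 843, 832 and 825 CPM in the shSTBD1 libraries. Its groups are also fully apart, with a log2 fold change of 0.28 (SE 0.0296, edgeR adjusted p = 7.47e-06). The balance of the types hardly moves: the TPM of type II keratins over that of type I is 0.883 ± 0.0303 in shControl and 0.869 ± 0.0102 in shSTBD1, which is within the spread of the controls.

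Among the scarce keratins, KRT7, KRT23 and KRT80 average 5.32, 5.53 and 0.737 TPM. KRT80 has the largest drop of the 39 genes in value, a log2 fold change of -0.50 (SE 0.213, edgeR adjusted p = 0.122), but the groups overlap and its 95% interval of -0.96 to -0.054 reaches close to 0. KRT23 shows a log2 fold change of 0.22 (SE 0.113, edgeR adjusted p = 0.201) and KRT7 one of -0.032 (SE 0.162, edgeR adjusted p = 0.925). KRT8 and KRT18 lie head to head on opposite strands of chromosome 12, with GENCODE gene models that overlap by 1084 bases. The sources do not say if reads were counted by strand, so reads of that stretch may go to either gene. RSEM's posterior SD of the count is 0.00112% of the count for KRT8 and 0.00249% for KRT18. How many reads fall in that stretch was not tested. Processed pseudogenes, of which 51 are named for KRT8 and 67 for KRT18, hold at most 0.509% and 0.321% of the counts of parent and pseudogenes together. Summing them with the parent leaves both calls in place. KRT18 and KRT19 pass in all 18 alternative analyses, and KRT8 in 16.

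The claudins are led by CLDN7 and CLDN4, both higher in shSTBD1. CLDN7 takes 51.4% ± 1.02 of the summed claudin TPM in shControl and 50.9% ± 0.669 in shSTBD1, and CLDN4 30.1% ± 0.231 and 33.1% ± 0.306. CLDN4 (chr7:73799542-73832690), which tightens the paracellular seal, measures 98.8, 102 and 102 CPM in the shControl libraries and 112, 117 and 118 CPM in the shSTBD1 libraries. Every shSTBD1 library is above every control, and the log2 fold change is 0.20 (SE 0.0360, edgeR adjusted p = 0.00141). CLDN7 (chr17:7259903-7263983), which is also found along the lateral membrane, measures 98.7, 102 and 104 CPM in the shControl libraries and 113, 109 and 113 CPM in the shSTBD1 libraries. The groups stay apart by a smaller gap, with a log2 fold change of 0.13 (SE 0.0358, edgeR adjusted p = 0.0172). CLDN7 does not pass without shSTBD1 1 (adjusted p = 0.0792) or without shSTBD1 3 (adjusted p = 0.0831), and its effective length is longer in every shSTBD1 library, where its level per length is 112 ± 5.28 TPM in shControl and 117 ± 2.10 TPM in shSTBD1. With offsets for effective length its log2 fold change is 0.068 with an adjusted p of 0.441.

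The neighbour of CLDN4 on chromosome 7, CLDN3, lies 29.3 kb away and is described here after its values were seen. CLDN3 measures 8.47, 9.10 and 7.91 CPM in the shControl libraries and 6.73, 7.03 and 7.82 CPM in the shSTBD1 libraries. Its groups are apart, but the log2 fold change of -0.24 (SE 0.107, edgeR adjusted p = 0.141) does not pass. The ratio of CLDN4 to CLDN3 in TPM is 6.74 ± 0.448 in shControl and 9.32 ± 0.389 in shSTBD1. The cation pore claudins CLDN2 and CLDN15 show log2 fold changes of -0.072 (SE 0.177, edgeR adjusted p = 0.835) and 0.021 (SE 0.1003, edgeR adjusted p = 0.919). CLDN12 shows a log2 fold change of 0.066 (SE 0.0518, edgeR adjusted p = 0.429) and CLDN23, which is scarce, one of 0.26 (SE 0.187, edgeR adjusted p = 0.388), with a 95% interval of -0.14 to 0.65. The value of CLDN23 is 0.094 without shControl 1 and 0.52 without shControl 2.

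For CLDN7, the 250 bases before a RefSeq start site are shown (chr17:7262479-7262728, minus strand, GRCh38.p14). Of the called genes, only 7 have a RefSeq window and could be searched, and CXADR, KRT18 and KRT19 are among those without a window. Among these 7, the window of CLDN7 holds the most copies of the E-box CACCTG. This 6-base word, or its reverse complement CAGGTG, is bound by ZEB1, a repressor of epithelial genes. Capitals mark the word on either strand, and the line reads 5′ to 3′ along the gene.
CLDN7: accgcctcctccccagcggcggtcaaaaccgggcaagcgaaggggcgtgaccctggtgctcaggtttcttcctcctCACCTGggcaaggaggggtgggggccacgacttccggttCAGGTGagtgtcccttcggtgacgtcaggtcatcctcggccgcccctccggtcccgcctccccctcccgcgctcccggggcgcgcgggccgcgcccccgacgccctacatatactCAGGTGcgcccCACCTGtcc
The window holds 4 copies before the start and 1 more after it.

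Of the 11 other tight junction and polarity genes, 4 are higher and 1 is lower, and 10 of the 11 fold changes are above 0. The largest change of all 39 genes past the threshold is that of CXADR (chr21:17513043-17593579), an adhesion protein of the immunoglobulin family that serves coxsackieviruses and adenoviruses as receptor. It measures 36.3, 33.4 and 34.6 CPM in the shControl libraries and 48.7, 50.4 and 49.9 CPM in the shSTBD1 libraries. The shSTBD1 values are close to 1.43 times the controls, with a log2 fold change of 0.52 (SE 0.0490, edgeR adjusted p = 2.15e-06), and CXADR passes in all 18 alternatives. TJP3 (chr19:3708362-3750813), the zonula occludens scaffold ZO-3, measures 25.8, 24.7 and 26.1 CPM in the shControl libraries and 29.1, 29.6 and 32.7 CPM in the shSTBD1 libraries. The library shSTBD1 3 is the highest, the groups are apart, and the log2 fold change is 0.25 (SE 0.0609, edgeR adjusted p = 0.00925). Without shSTBD1 3 it is 0.20 with an adjusted p of 0.0639. Per length the groups of TJP3 overlap, at 15.3 ± 1.98 TPM in shControl and 16.4 ± 0.929 TPM in shSTBD1, and with offsets for effective length the log2 fold change is 0.11 with an adjusted p of 0.634.

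The changes of the other called membrane proteins are smaller and depend more on the analysis. F11R (chr1:160995211-161021343), the junctional adhesion molecule JAM-A, measures 117, 104 and 104 CPM in the shControl libraries and 121, 120.0 and 127 CPM in the shSTBD1 libraries. The groups are apart, although shControl 1 stands above its fellows, and the log2 fold change is 0.17 (SE 0.0440, edgeR adjusted p = 0.0125). Its effective length, RSEM's abundance-weighted mean over the transcripts of their length less an allowance for fragment size, is 3618 to 3721 bases in the controls and 3988 to 4150 bases in shSTBD1. Per length the level is 33.9 ± 1.65 TPM in shControl and 34.0 ± 0.746 TPM in shSTBD1, and with offsets for effective length the log2 fold change is 0.013 with an adjusted p of 0.93. MARVELD3 (chr16:71626161-71642114), a relative of occludin, measures 23.7, 23.7 and 24.3 CPM in the shControl libraries and 26.7, 27.2 and 27.5 CPM in the shSTBD1 libraries. The shSTBD1 libraries all exceed the controls, with a log2 fold change of 0.18 (SE 0.0559, edgeR adjusted p = 0.0337). MARVELD3 misses the threshold when any 1 library is left out, with adjusted p values of 0.0611 to 0.111, and with DESeq2 (adjusted p = 0.137). With offsets for effective length its log2 fold change is 0.092 with an adjusted p of 0.587, and per length its groups overlap, at 15.7 ± 1.12 TPM in shControl and 16.6 ± 1.16 TPM in shSTBD1. F11R misses it without shControl 2 (adjusted p = 0.0536), shControl 3 (0.0644) or shSTBD1 3 (0.0748).

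PARD3 is the tight junction and polarity gene that is lower. It encodes a scaffold of the PAR complex (chr10:34109560-34815325) and measures 34.3, 31.5 and 36.3 CPM in the shControl libraries and 31.2, 29.9 and 27.7 CPM in the shSTBD1 libraries. The highest shSTBD1 library lies just under the lowest control, and the log2 fold change is -0.20 (SE 0.0636, edgeR adjusted p = 0.0443). This is the call nearest to the threshold but that of PPL: it is lost with DESeq2 (adjusted p = 0.0814), with scaling by library size (0.0624), and when any library other than shControl 2 is left out (0.0523 to 0.189). Its effective length is shorter in shSTBD1, 2999 to 3210 bases against 3309 to 3490 bases, and with offsets for it the log2 fold change is -0.080 with an adjusted p of 0.585. Its partner PARD6B shows a log2 fold change of 0.089 (SE 0.0891, edgeR adjusted p = 0.549).

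The 6 genes of this class that do not pass include the central scaffold and strand proteins. TJP1, or ZO-1, is with F11R the most abundant of the class in TPM and measures 148, 133 and 133 CPM in the shControl libraries and 142, 138 and 142 CPM in the shSTBD1 libraries. Its groups overlap, with a log2 fold change of 0.026 (SE 0.0408, edgeR adjusted p = 0.73) and a 95% interval of -0.061 to 0.11. Occludin, OCLN, shows a log2 fold change of 0.095 (SE 0.0603, edgeR adjusted p = 0.317) and tricellulin, MARVELD2, the occludin relative of the corners where cells meet, one of 0.12 (SE 0.0582, edgeR adjusted p = 0.176). Cingulin, CGN, which binds the zonula occludens scaffolds, shows a log2 fold change of 0.16 (SE 0.0595, edgeR adjusted p = 0.0787), and PATJ, a scaffold of the Crumbs complex, one of 0.15 (SE 0.0528, edgeR adjusted p = 0.0704). Both CGN and PATJ pass without shControl 1, with adjusted p values of 0.0415 and 0.0267.

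Desmosome genes pass the test in both directions, 2 higher and 3 lower. Both genes for desmosomal cadherins with a level above 10 TPM, DSG2 and DSC2, are lower in shSTBD1, while JUP, which binds their tails, is higher, and the summed level of the class is 409 ± 7.82 TPM in shControl and 409 ± 10.1 TPM in shSTBD1. DSG2 (chr18:31498177-31549008), the desmoglein of simple epithelia, measures 323, 316 and 306 CPM in the shControl libraries and 297, 284 and 283 CPM in the shSTBD1 libraries. All shSTBD1 libraries are below the controls, with a log2 fold change of -0.13 (SE 0.0329, edgeR adjusted p = 0.0131). DSC2 (chr18:31058840-31102522), the desmocollin of simple epithelia, measures 99.98, 103 and 98.8 CPM in the shControl libraries and 85.5, 81.6 and 84.9 CPM in the shSTBD1 libraries. The gap between the groups is wider, and the log2 fold change is -0.26 (SE 0.0365, edgeR adjusted p = 0.000132). DSC3, a scarcer desmocollin 16 kb from DSC2 on chromosome 18, overlaps between the groups and shows a log2 fold change of -0.069 (SE 0.0745, edgeR adjusted p = 0.585). DSG2 does not pass without shSTBD1 2 (adjusted p = 0.0822) or shSTBD1 3 (adjusted p = 0.081).

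JUP, plakoglobin, is shared by desmosomes and adherens junctions (chr17:41754604-41786931) and measures 250.4, 236 and 243 CPM in the shControl libraries and 274, 277 and 279.8 CPM in the shSTBD1 libraries. Its groups are well apart, and the log2 fold change is 0.19 (SE 0.0319, edgeR adjusted p = 0.000746). The TPM of JUP over that of DSG2 is 1.55 ± 0.0730 in shControl and 1.95 ± 0.0462 in shSTBD1. Of the plakophilins, which cluster the desmosomal proteins, PKP3 is the most abundant and measures 152, 135 and 140.1 CPM in the shControl libraries and 153, 156 and 154 CPM in the shSTBD1 libraries. Its groups are apart by less than 1 CPM and its log2 fold change of 0.12 (SE 0.0401, edgeR adjusted p = 0.0597) does not pass, but it passes in 6 of 18 alternatives, with an adjusted p of 0.000401 without shControl 1. PKP2 shows a log2 fold change of -0.12 (SE 0.0566, edgeR adjusted p = 0.154) and PKP4 one of -0.051 (SE 0.0432, edgeR adjusted p = 0.467).

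The plakins, which tie desmosomes and the cell edge to keratin, do not move as a block. EVPL, envoplakin (chr17:76004502-76027306), measures 117, 105 and 107 CPM in the shControl libraries and 92.1, 92.1 and 92.4 CPM in the shSTBD1 libraries. The shSTBD1 libraries are nearly identical and below the controls, with a log2 fold change of -0.25 (SE 0.0414, edgeR adjusted p = 0.000592). PPL, periplakin, its binding partner (chr16:4882507-4960741), measures 85.6, 68.5 and 72.6 CPM in the shControl libraries and 83.9, 84.6 and 89.6 CPM in the shSTBD1 libraries. It is the called gene whose groups overlap, since shControl 1 exceeds 2 of the shSTBD1 libraries, and the log2 fold change is 0.19 (SE 0.0612, edgeR adjusted p = 0.0468). Without shControl 1 the value of PPL is 0.29 with an adjusted p of 3.24e-05, and leaving out any other library loses the call (adjusted p of 0.0955 to 0.196). Desmoplakin, DSP, with the most counts of the desmosome genes, shows a log2 fold change of -0.11 (SE 0.0458, edgeR adjusted p = 0.115). The value of DSP depends on the control libraries: it is -0.039 without shControl 1 (adjusted p = 0.29) and -0.15 without shControl 2 (adjusted p = 0.0498).

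**Figure D3:**
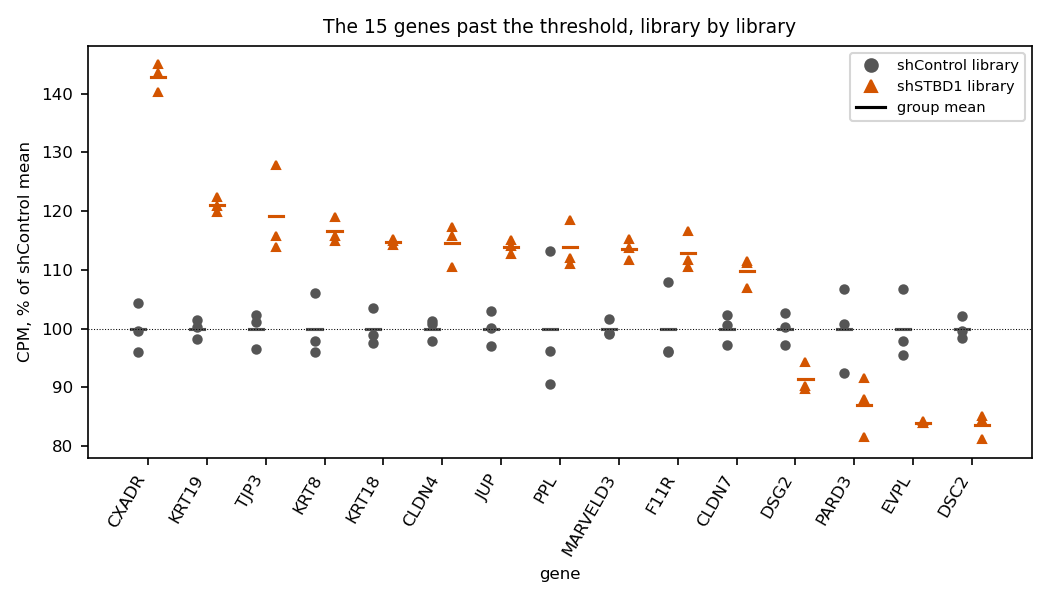
CPM of each library as a percentage of the shControl mean for the 15 genes past the threshold, shControl as grey circles, shSTBD1 as orange triangles, lines for group means. The shSTBD1 libraries of CXADR lie above 140%, those of DSC2 and EVPL below 86%, and PPL is the gene whose groups overlap.

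The windows before the start of JUP (chr17:41785977-41786226, minus strand) and of DSG2 (chr18:31497927-31498176, plus strand) are shown in the same form as that of CLDN7. They are the others with at least 2 E-boxes among the 7 called genes that have a window. JUP is higher and DSG2 lower in shSTBD1.
JUP: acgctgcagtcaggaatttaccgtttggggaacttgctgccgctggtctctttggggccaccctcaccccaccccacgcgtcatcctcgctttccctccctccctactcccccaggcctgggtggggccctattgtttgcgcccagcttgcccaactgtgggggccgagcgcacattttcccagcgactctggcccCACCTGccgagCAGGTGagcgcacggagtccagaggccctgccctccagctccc
DSG2: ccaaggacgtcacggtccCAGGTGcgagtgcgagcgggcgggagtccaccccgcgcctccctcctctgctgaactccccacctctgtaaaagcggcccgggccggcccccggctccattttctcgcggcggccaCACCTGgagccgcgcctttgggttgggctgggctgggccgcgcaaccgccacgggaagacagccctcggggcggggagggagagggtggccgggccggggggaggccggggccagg
Each window holds 2 copies of the word. RefSeq windows from 250 bases before to 50 bases after a start were found for 23 of the 41 genes, 37 windows in all. The E-box is in 12 windows (32.4%), against 20.6% of all 35116 windows. AACCNGGTT, the word of grainyhead-like factors, is in 0 windows, against 0.239% of all. At that rate 37 windows are too few for a match to be likely, so the 0 cannot be read as an absence. By window, the E-box is in 3 of 8 windows of higher genes (1 each of CLDN7, JUP and TJP3), in 2 of 3 windows of lower genes (1 each of DSG2 and DSC2) and in 7 of 26 windows of genes not called. CLDN7, JUP, TJP3 and DSC2 each have another window without it, the windows of CLDN4 and KRT8 hold none, and 6 of 16 genes not called have at least 1 window with it. A match gives the letters only and no binding is measured here.

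These words were chosen because ZEB1 and GRHL3 are among the largest changes known from earlier results of these data. ZEB1 measures 7.64, 8.38 and 8.87 CPM in the shControl libraries and 4.87, 3.91 and 3.98 CPM in the shSTBD1 libraries, with a log2 fold change of -0.97 (SE 0.129, edgeR adjusted p = 7.68e-05). GRHL3, a grainyhead-like activator of epithelial genes, measures 7.53, 7.23 and 7.51 CPM in the shControl libraries and 19.5, 22.2 and 18.6 CPM in the shSTBD1 libraries, with a log2 fold change of 1.44 (SE 0.0899, edgeR adjusted p = 2.68e-08). SNAI1, a repressor that binds the same E-box, goes the other way from ZEB1: it measures 11.3, 11.6 and 10.7 CPM in the shControl libraries and 13.2, 14.2 and 13.6 CPM in the shSTBD1 libraries, with a log2 fold change of 0.28 (SE 0.0804, edgeR adjusted p = 0.0242). For all 3 factors the groups do not overlap. On a list of regulators made with earlier results known, 7 of 10 tested epithelial transcription or splicing regulators are higher and 0 lower. Over all genes, 8.22% are higher and 7.54% lower, but a list made this way cannot test for an excess. Of 4 tested repressors, SNAI1 is higher, ZEB1 is lower and 2 do not pass. GRHL3 passes in all 18 alternative analyses, GRHL2 and ESRP1 in 16, and ZEB1, OVOL1 and ELF3 in 15. SNAI1 passes in 11 and GRHL1 and ESRP2 in 10 each, and the log2 fold change of ESRP2 falls as low as 0.0015.

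The catenins and the matriptase group do not pass in any gene, at high levels. CTNNA1, alpha-catenin, which links the cadherin complex to actin, measures 378, 358 and 362 CPM in the shControl libraries and 372, 367 and 359 CPM in the shSTBD1 libraries, and the 95% interval of its log2 fold change is -0.067 to 0.067. CTNND1, p120 catenin, which holds cadherins at the membrane, measures 312, 299 and 297 CPM in the shControl libraries and 307, 316 and 314 CPM in the shSTBD1 libraries, with an interval of -0.021 to 0.11. The values overlap in both genes. SPINT2 and SPINT1, the Kunitz inhibitors that hold matriptase in check, have intervals of -0.088 to 0.049 and -0.0075 to 0.16. SPINT2 measures 287, 299 and 307 CPM in the shControl libraries and 295, 292 and 293 CPM in the shSTBD1 libraries. SPINT1 measures 99.8, 109.5 and 104 CPM in the shControl libraries and 107, 111 and 112 CPM in the shSTBD1 libraries. Matriptase itself, ST14, a protease of the lateral membrane, shows a log2 fold change of 0.068 (SE 0.0360, edgeR adjusted p = 0.218) and passes in 1 of 18 alternatives, without shControl 1 (adjusted p = 0.0425).

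A further 72 genes of the same families serve as company. Of these, 36 are expressed enough to be tested and 9 pass (25.0%), against 15.8% of all genes tested. Higher are 7 (19.4%, against 8.22% of all genes) and lower 2 (5.56%, against 7.54%). All 9 but KRT6A average at least 10 TPM. Of all genes at that level 22.7% are called, but the 25.0% covers tested genes of every level, so these 2 shares are not alike. The share among the further genes at that level is not given here. PERP, a membrane protein of desmosomes, measures 194, 187 and 196 CPM in the shControl libraries and 237, 231 and 238 CPM in the shSTBD1 libraries, with a log2 fold change of 0.29 (SE 0.0321, edgeR adjusted p = 1.03e-05). E-cadherin, CDH1, the adhesion protein of the adherens junction, measures 77.0, 72.1 and 69.5 CPM in the shControl libraries and 89.5, 90.1 and 87.2 CPM in the shSTBD1 libraries. Its groups are apart, with a log2 fold change of 0.29 (SE 0.0417, edgeR adjusted p = 0.000176). P-cadherin, CDH3, is higher by a log2 fold change of 0.12 (SE 0.0350, edgeR adjusted p = 0.0322), afadin, AFDN, which binds nectins to actin, by 0.14 (SE 0.0368, edgeR adjusted p = 0.0135), and the tight junction protein TJAP1 by 0.19 (SE 0.0579, edgeR adjusted p = 0.0369). Prostasin, PRSS8, a protease partner of matriptase, is higher by a log2 fold change of 0.21 (SE 0.0634, edgeR adjusted p = 0.0324). NECTIN3, an adhesion protein, and MAGI1, a scaffold, are lower, with log2 fold changes of -0.22 (SE 0.0355, edgeR adjusted p = 0.000572) and -0.19 (SE 0.0463, edgeR adjusted p = 0.0115). With offsets for effective length the log2 fold change of MAGI1 is -0.024 (adjusted p = 0.894), that of PRSS8 0.12 (adjusted p = 0.75) and that of NECTIN3 -0.37 (adjusted p = 0.0116). PERP and NECTIN3 pass in all 18 alternatives, CDH1 in 15, MAGI1 in 14, AFDN in 13, TJAP1 in 10, CDH3 in 9 and PRSS8 in 8. Without shControl 3, 5 of the further genes pass, where 11.5% of all genes are called. Without shSTBD1 1, 5 pass as well, where 9.84% of all genes are called.

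Of the 21 further keratins, 6 could be tested. KRT6A, a keratin of stratified and wounded epithelium, measures 1.19, 1.44 and 1.41 CPM in the shControl libraries and 2.79, 3.03 and 2.92 CPM in the shSTBD1 libraries, which is 78 counts in all in shControl and 175 counts in shSTBD1. Its log2 fold change is 1.11 (SE 0.207, edgeR adjusted p = 0.00162), the largest of the keratins in value, and it passes in 14 of the 17 alternatives that give it an adjusted p. Its near-identical copies hold few counts: KRT6C has 0 counts in both groups and KRT6B 15 counts in shControl and 17 counts in shSTBD1, and RSEM's posterior SD of the KRT6A count is 0.289% of the count.

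Fold changes in these libraries drift with gene length, and this touches the split between short keratins and long plakins and cadherins. Over all 15566 genes the Spearman correlation of log2 fold change with mean effective length is -0.17, with medians from 0.077 in the shortest 10% of genes to -0.045 in the longest 10%. The 11 genes higher have a median effective length of 1795 bases and the 4 lower one of 5599 bases. With offsets for this trend, 17 genes pass, 14 higher and 3 lower, where 15.6% of all genes are called. Of the 15 calls, 14 are among these 17. PARD3 is the call lost there, with an adjusted p of 0.066. Over the 39 genes the same correlation is -0.35. How much of these calls the drift accounts for was not tested beyond these offsets.

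The effective length that RSEM assigns differs without overlap between the groups for 6 of the 39 genes, CLDN4, CLDN7, F11R, PARD3, DSP and CTNND1, against 9.55% of all genes. With offsets for it in each library, 7 of the 39 genes pass: CLDN4, CXADR, JUP, KRT8, KRT18 and KRT19 higher and DSC2 lower, while 511 of all 15566 genes pass. With limma on TPM, 3 pass, CXADR, KRT18 and KRT19, and 292 or 290 genes in all. No called gene changes direction in any of the 18 alternatives.

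**Figure D4:**
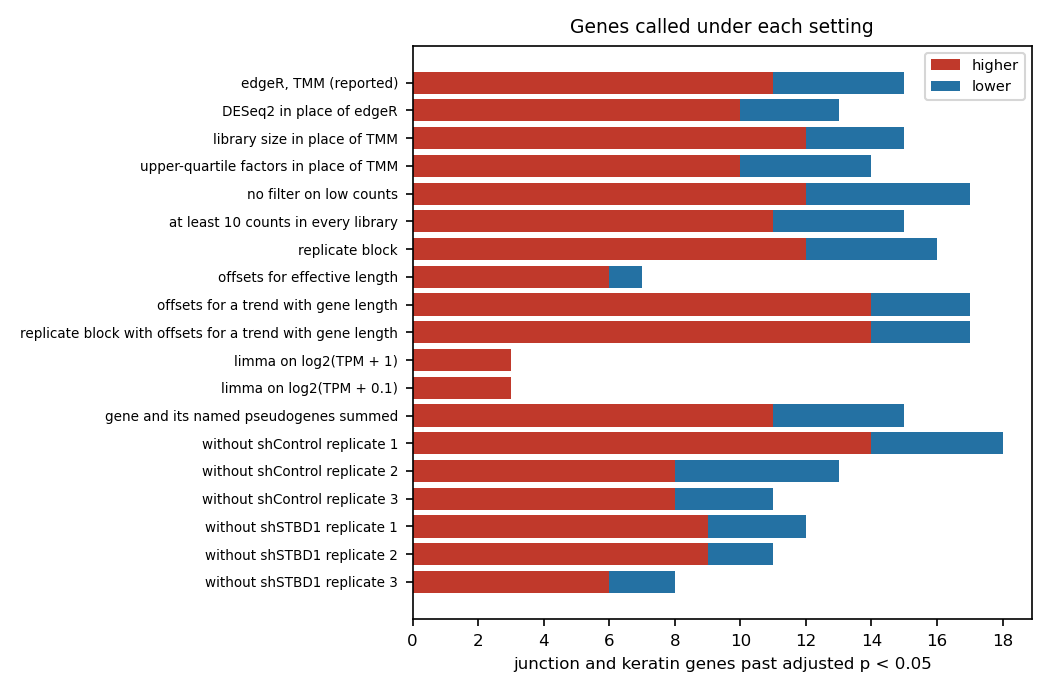
Number of the 41 genes past an adjusted p of 0.05 under the reported analysis and 18 alternatives, higher in red and lower in blue. The count is 15 as reported, 3 with limma on TPM, 7 with offsets for effective length and 18 without shControl 1.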

How the data were processed

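RNA of 6 HCT116 libraries, 3 shControl and 3 shSTBD1, is grouped by the titles in the labels. The authors trimmed reads, aligned them with STAR 2.7.1a (Hg38, gene models of Ensembl release 93), and deposited, per library, RSEM 1.3.1 expected counts, which are not normalized, together with TPM values that the authors' RSEM run scaled to 1 total. The deposited effective lengths and posterior standard deviations of the counts are RSEM's too. The kit is NEBNext Ultra RNA, and whether counting used strand is not given in the sources used here.

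Expected counts were rounded, filtered with filterByExpr (15566 genes left), scaled by TMM and tested with glmQLFit and glmQLFTest, the quasi-likelihood functions of edgeR 4.0.16 under R 4.3.3, two-sided, with Benjamini-Hochberg adjustment over all tested genes and a threshold of 0.05. CPM values use TMM-scaled library sizes. SE is the log2 fold change over the root of F. Levels of different genes are compared in TPM only. Values after ± are SDs over 3 libraries. Counting precision follows from the totals of 17689097 to 21668274. An exact permutation test of 3 against 3 libraries cannot go below 0.1, so none is printed.

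Library values are given for every called gene and for the 2 genes of highest mean TPM in each class. Fold changes of other genes, and the library values of CLDN3, were added after they were seen. The genes, the further lists and the promoter words were chosen with earlier results of these data known. Positions are from GENCODE release 44 on GRCh38, promoter windows from RefSeq on GRCh38.p14. Alternatives were DESeq2 1.42.0, limma 3.58.1 on log2 TPM with 1 or 0.1 added, other scalings, filters and offsets, the replicate block, summed pseudogenes, and each library left out. The scripts were tested on simulated data. Same-numbered libraries deviate together by correlations of 0.068, 0.041 and -0.0068, so the numbers were not taken as pairs.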

Additional observations from a re-analysis of the deposited data

How the results depend on the processing

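CXADR, KRT18 and KRT19 pass in all 18 alternatives, and no called gene reverses in any of them. With offsets for effective length the count of called genes falls from 15 to 7 (6 higher, 1 lower), and with limma on log2(TPM + 1) or log2(TPM + 0.1) to 3 (3 higher, 0 lower) and 3 (3 higher, 0 lower). Over the analyses that leave out 1 library it runs from 8 to 18, with 6 to 14 higher and 2 to 5 lower. The lowest count is that without shSTBD1 3 and the highest that without shControl 1. The 9 further junction and keratin genes become 5 with DESeq2, which gives KRT6A no adjusted p, 2 with effective length offsets, 2 and 2 with limma, and 5 to 8 with 1 library left out. The share called over all genes moves too. From 15.8% it becomes 3.28% with effective length offsets, 1.88% and 1.86% with limma, and 8.90% to 16.2% with 1 library left out. The median log2 fold change of 0.076 becomes 0.040 with effective length offsets, 0.089 with offsets for the length trend and 0.090 with the replicate block added to them, 0.031 and 0.031 with limma, and 0.072 to 0.094 with 1 library left out. Both length trend analyses were chosen after seeing the data. STBD1 is -0.54 and -0.65 in limma, with adjusted p of 0.0646 and 0.0672. The cause of these shifts was not tested.

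With the replicate block alone, 16 genes pass, 12 higher and 4 lower. All 15 calls are kept and PKP3 is added (adjusted p = 0.0441), and 2579 of all genes pass in place of 2453. The numbers are not known to pair the libraries.

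Reversals touch only genes that did not pass. Under effective length offsets and the limma analyses in turn, CLDN12 is -0.18, -0.17 and -0.18, CLDN15 -0.012, -0.021 and -0.023, CTNNA1 -0.029, -0.038 and -0.038, and CTNND1 -0.023, -0.033 and -0.033. CTNNA1 is also -0.0026 with DESeq2, -0.0030 with upper-quartile factors and -0.00090 with at least 10 counts in every library. With 1 library left out, the log2 fold change of CLDN2 runs from -0.19 to 0.011, CLDN15 from -0.089 to 0.082, TJP1 from -0.00044 to 0.076, PARD6B from -0.023 to 0.15, CTNNA1 from -0.015 to 0.022, KRT7 from -0.16 to 0.12 and SPINT2 from -0.046 to 0.0038.

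Among the scarce genes, CLDN1 and PKP1 could not be tested, and the 8 tested genes below 10 TPM hold 0 calls by edgeR. Over all tested genes 15.8% are called, and 22.7% of those at 10 TPM or more. With 8 genes, 0 calls cannot be read as a lack of change.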
